A study of Mus musculus with 8 samples.

Results

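The 4 sham-operated libraries of a study of 8 mouse heart libraries were described together as the transcriptome of the heart without pressure overload. They were all of the libraries labelled Sham, 2 from wild-type C57BL/6 mice (WT-Sham1 and WT-Sham2) and 2 from Fat-1 mice (Fat1-Sham1 and Fat1-Sham2), so the choice used labels only and no measured value. The other 4 libraries came from mice with transverse aortic constriction (TAC), 2 per genotype, and are used below only for comparison. Wild-type and Fat-1 mice were littermates and were 3 months old at surgery. A sham mouse had its chest opened but its aorta was not narrowed. Fat-1 mice carry the fat-1 gene of Caenorhabditis elegans, a desaturase that turns n-6 into n-3 polyunsaturated fatty acids, and the table lists mouse genes, so the transgene itself was not analysed here. The study asked how raised n-3 fatty acids act on a pressure-overloaded heart, and the sham groups were its baseline for both genotypes. RNA was sequenced as mRNA libraries and given as FPKM, fragments per transcript length and library size, which allows levels of different genes to be compared per length.

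The adult heart beats without pause and meets its need for ATP almost wholly by oxidation in mitochondria, mainly of fatty acids, with glucose, lactate and ketone bodies beside them. Contraction rests on the sarcomere, in which myosin heavy and light chains pull on actin filaments under the control of troponin and tropomyosin, and calcium is released and taken up again by the sarcoplasmic reticulum in each beat. Many of these proteins exist as closely related isoforms from separate genes, and the isoform in use differs between atrium and ventricle, between heart and skeletal muscle and between the fetal and the adult heart.

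The sham libraries held between 14163994 and 21218331 fragments, and all 8 libraries lay within that range. WT-Sham1 was the shallowest library, and 3 fragments on a transcript of 1 kilobase corresponded to 0.212 FPKM there and to 0.141 FPKM in WT-Sham2. The depth was recovered from the values. Of 25929 listed genes, 11506 gave whole numbers of fragments within 0.02 at their median annotated transcript length and 327 at the length of another annotated transcript. For the other 14096 a length was searched at which the values came out whole. The labels name ventricular tissue and the methods name whole hearts. Of the 10 ventricular marker genes all were abundant in all 4 libraries, and of the 8 atrial marker genes 7 were over 2-fold apart between them, with summed levels of 1707, 5133, 2123 and 649 FPKM in WT-Sham1, WT-Sham2, Fat1-Sham1 and Fat1-Sham2. Of all genes with a mean of 1 FPKM or more, 5.41% were over 2-fold apart. Clu, the atrial marker that was less than 2-fold apart, was at 577, 1071, 653 and 578 FPKM in the same order of libraries. It made up most of the atrial sum in Fat1-Sham2. All 4 libraries expressed Y-linked genes, and Xist, which is made by the inactive X chromosome, was at 0.0409 FPKM or less. T cell and thymocyte markers summed to 0.951 to 1.18 FPKM, with 7 of 9 genes at 3 fragments or fewer in each sham library. In the TAC libraries the same list reached 1717 FPKM in WT-TAC1, a library that stood apart from the other 7, and leaving it out changed no call in the tests against TAC libraries.

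Before the libraries were pooled, the genotypes were compared. With limma on log2(FPKM + 1), 0 of 14442 genes differed between Fat1-Sham and WT-Sham (0% called, where a call needed an adjusted p below 0.1 together with a change of more than 1.5-fold), and 180 had an unadjusted p under 0.05. With limma-voom on the recovered fragments 0 genes were called as well, and 181 had an unadjusted p under 0.05. The unadjusted count depended on the libraries in the fit, with 589 when only the sham libraries were used, 728 without WT-TAC1 and 729 without WT-TAC2, and 0 genes were called in each. With 2 libraries per genotype this does not show that the genotypes were alike. Across the 12873 genes with a mean of 1 FPKM or more, Pearson's r of log2 values between 2 sham libraries was 0.975 to 0.988, and the median gene had a standard deviation (SD) of 0.15 over the 4 libraries on the log2 scale. The largest number of genes over 2-fold apart in a pair of libraries was 451, between WT-Sham2 and Fat1-Sham2, and the smallest 123, between WT-Sham1 and Fat1-Sham1. Neither of these pairs shared a genotype, and the pair of wild-type libraries was 289 genes apart and the pair of Fat-1 libraries 223. The labels call the libraries of a group independent samples, and the mean ± SD below is over the 4 sham libraries (n = 4).

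A small number of genes held a large share of the sham transcriptome. The 10 most abundant genes held 32.9%, 28.9%, 29.9% and 30.8% of summed FPKM in WT-Sham1, WT-Sham2, Fat1-Sham1 and Fat1-Sham2. The 100 most abundant held 53.5%, 48.7%, 50.01% and 51.1%, and 50% of the sum was reached with 69 genes in WT-Sham1 and with 115 in WT-Sham2. Of the 100 genes with the highest mean, 77 belonged to 7 classes of energy supply, oxygen transport and contraction. These were 30 nuclear genes of the respiratory chain and ATP synthase, 16 of the sarcomere, 10 encoded by mitochondrial DNA, 9 of fatty acid use, 6 of the citric acid cycle and its shuttles, 3 oxygen carriers and 3 of energy buffering. The rest of the 100 comprised 5 genes of glucose use, 5 of translation and protein folding, 2 secreted factors, 1 each of calcium handling, iron storage and ribosomal proteins, and 8 genes of no class.

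**Figure D1:**
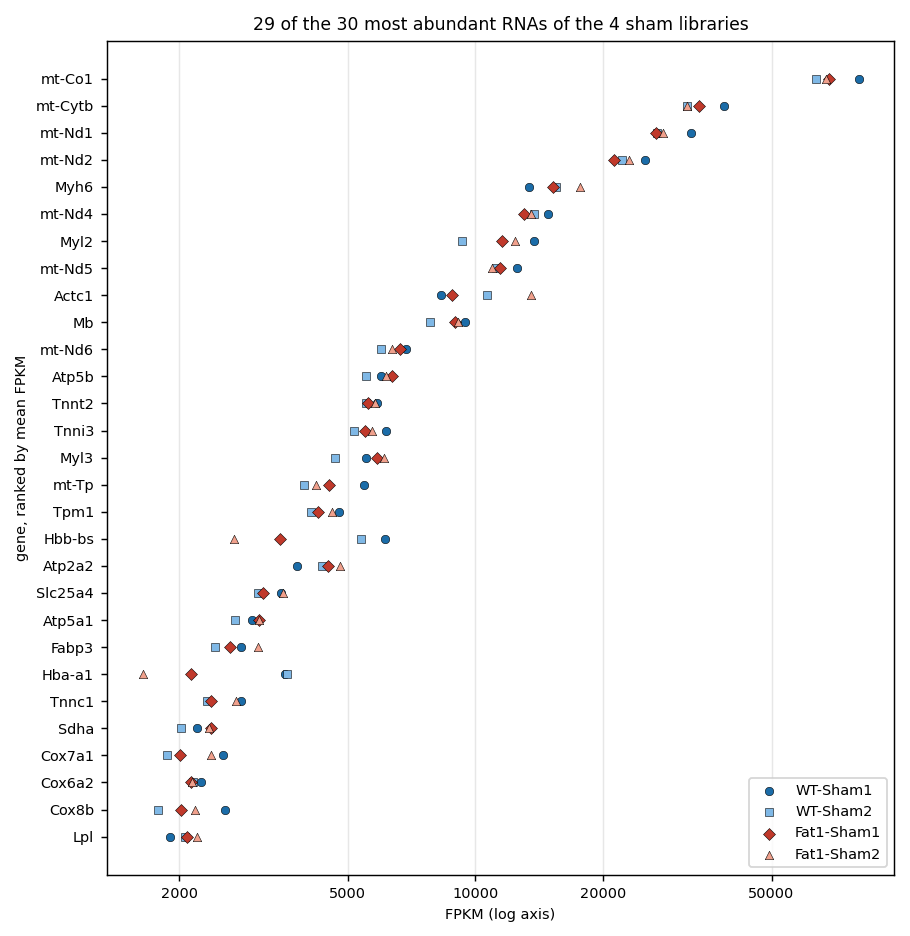
Level of 29 of the 30 genes with the highest mean in the sham libraries, as FPKM on a log axis, with 1 point per library. Mitochondrially encoded transcripts lead the list, and Hbb-bs and Hba-a1, which encode haemoglobin chains, are the 2 genes drawn whose libraries lie farthest apart.

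Transcripts of the mitochondrial genome took the largest share of any class, 26.4% ± 1.84 of summed FPKM, with 29.01% in WT-Sham1, 24.8% in WT-Sham2, 26.05% in Fat1-Sham1 and 25.6% in Fat1-Sham2. mt-Co1, the catalytic core of cytochrome c oxidase, was the most abundant transcript of all, at 80252 FPKM in WT-Sham1, 63808 in WT-Sham2, 68424 in Fat1-Sham1 and 67370.4 in Fat1-Sham2, or 9.44% of the sum on average. Next among the mitochondrial transcripts were mt-Cytb of complex III (33864 ± 3279 FPKM) and the complex I subunits mt-Nd1 (28356 ± 2637), mt-Nd2 (22920.5 ± 1650.3), mt-Nd4 (13784 ± 774) and mt-Nd5 (11532 ± 714). WT-Sham1 had the highest level of mt-Co1, mt-Cytb, mt-Nd1, mt-Nd2, mt-Nd4 and mt-Nd5 and was also the shallowest library.

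The mitochondrial mRNAs were far from equal in level. mt-Co2 reached only 1569 ± 491 FPKM, mt-Co3 770.0 ± 179, mt-Atp6 612 ± 130.3 and mt-Nd3 494 ± 273. Several mitochondrial genes have near-identical copies in the nuclear genome. All 50-base words of mt-Co2 and 99.9% of those of mt-Co3 also occur in another annotated gene, against 62.2% for mt-Nd4, 51.1% for mt-Co1 and 0 for mt-Cytb. Copies were themselves among the 100 most abundant listed genes: Gm29216, a copy of mt-Co1, was at 1051, 1034, 823 and 967 FPKM in WT-Sham1, WT-Sham2, Fat1-Sham1 and Fat1-Sham2, Gm28661, a copy of mt-Co2, at 854, 912, 851 and 767, and Gm10925, a copy of mt-Atp6, at 936, 853, 1246 and 743. Levels of these genes are therefore uncertain, since reads of such sequences can be split between the copies. mt-Tp, a transfer RNA gene, also ranked among the first 30 at 4537 ± 664 FPKM, a value that rests on a very short transcript, and the 2 mitochondrial ribosomal RNAs were at 95.4 ± 37.1 and 109 ± 35.6 FPKM for mt-Rnr1 and mt-Rnr2 in these mRNA libraries.

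Sarcomere and Z-disc genes took 10.5% ± 0.649 of summed FPKM (10.04% to 11.46%), the second largest share. Myh6, the fast alpha myosin heavy chain of the adult mouse heart, led the class at 13402 FPKM in WT-Sham1, 15522 in WT-Sham2, 15276 in Fat1-Sham1 and 17694 in Fat1-Sham2. It was followed by the ventricular regulatory light chain Myl2 (13735, 9328, 11573 and 12429.5 FPKM in the same order) and cardiac actin Actc1 (8322, 10647, 8831 and 13503). Actc1 was highest in Fat1-Sham2 and Myl2 lowest in WT-Sham2, the same library in which atrial light chains were highest. Tnnt2 (5692 ± 170.0 FPKM), Tnni3 (5634 ± 417) and Tnnc1 (2558 ± 239), the 3 cardiac troponin subunits, and Tpm1 (4431 ± 302) were all among the first 30 genes, and Tnnt2 was among the steadiest transcripts, with a coefficient of variation of 2.99%. Tcap, which caps titin at the Z-disc, varied more, at 1012, 1624, 933 and 773 FPKM.

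The promoters of these genes were searched for 3 short motifs, chosen after the expression values were seen: CATTCC, the core of the M-CAT element bound by TEAD factors, CACGTG, an E-box, and TATAAA, each on both strands of the 300 bases from 250 before to 50 after the RefSeq start. CATTCC occurred in 21 of 53 sarcomere promoters of genes expressed at 1 FPKM or more (39.6%), against 14.6% of all 27025 mouse promoters and 11.96% of the 9423 promoters of expressed genes. In the nuclear respiratory chain class the share was 7 of 67 (10.4%). TATAAA occurred in 10 of the 53 sarcomere promoters (18.9%), against 14.2% of all promoters and 7.29% of those of expressed genes. A match describes the letters only. The 3 most abundant sarcomere genes with a match are shown, on GRCm38.p6 and 5′ to 3′ on the strand of the gene, with CATTCC or its reverse complement in capitals.
Myh6 (chr14:54966558-54966857, minus strand): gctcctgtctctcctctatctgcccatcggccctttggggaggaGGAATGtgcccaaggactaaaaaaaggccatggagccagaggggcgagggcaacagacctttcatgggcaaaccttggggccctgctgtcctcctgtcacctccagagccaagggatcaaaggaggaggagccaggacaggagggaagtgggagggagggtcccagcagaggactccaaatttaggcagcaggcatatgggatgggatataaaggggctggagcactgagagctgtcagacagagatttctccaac
Tnnt2 (chr1:135836084-135836383, plus strand): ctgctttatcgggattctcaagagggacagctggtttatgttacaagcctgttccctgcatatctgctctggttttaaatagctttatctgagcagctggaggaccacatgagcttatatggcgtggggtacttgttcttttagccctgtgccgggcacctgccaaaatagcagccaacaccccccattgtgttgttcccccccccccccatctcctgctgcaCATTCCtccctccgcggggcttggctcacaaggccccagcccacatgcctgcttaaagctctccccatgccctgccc
Myl3 (chr9:110763428-110763727, plus strand): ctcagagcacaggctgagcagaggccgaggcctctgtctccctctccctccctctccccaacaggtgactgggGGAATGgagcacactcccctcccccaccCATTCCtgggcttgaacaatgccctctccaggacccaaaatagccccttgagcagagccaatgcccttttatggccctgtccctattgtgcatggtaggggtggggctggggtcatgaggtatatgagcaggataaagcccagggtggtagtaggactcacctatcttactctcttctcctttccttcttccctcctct
The match began 206 bases before the start in Myh6, on the other strand, and 27 bases before it in Tnnt2, on the strand of the gene. Myl3 held 2 matches, 1 on each strand. Tead1, which encodes the leading TEAD factor, was at 70.4 ± 4.31 FPKM.

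Nuclear genes of the respiratory chain and ATP synthase took 8.43% ± 0.384 of summed FPKM (7.95% to 8.82%), and this was 1 of the steadiest classes. Of its 90 genes at 1 FPKM or more, 0 were over 2-fold apart between the sham libraries, and the median SD was 0.11 on the log2 scale. Atp5b (6011 ± 369 FPKM) and Atp5a1 (2968 ± 179.5), the beta and alpha subunits of the catalytic head of ATP synthase, led it, ahead of Sdha of complex II (2242 ± 164) and the muscle-type cytochrome oxidase subunits Cox7a1 (2202 ± 306), Cox6a2 (2174 ± 57.03) and Cox8b (2139 ± 329.5). Slc25a4, the carrier that exports ATP from mitochondria, reached 3310.2 ± 225 FPKM.

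Among the genes of fuel use, fatty acid use took 2.63% ± 0.147 of the sum, led by Fabp3, which carries fatty acids through the cytosol (2735 ± 267 FPKM), by lipoprotein lipase Lpl (2067 ± 124) and by the medium-chain acyl-CoA dehydrogenase Acadm (1490.0 ± 117). The citric acid cycle and its shuttles took 2.23% ± 0.104, with Mdh1 (1978 ± 92.9 FPKM) and Idh2 (1402 ± 221) among its leading genes. Glucose and glycogen use took 1.46% ± 0.0563, led by Aldoa (1678 ± 104), Ldhb (1518 ± 105) and Eno3 (1348 ± 93.6). Tpi1, a glycolytic enzyme, was the steadiest of the 100 most abundant genes, at 895, 888, 885 and 879 FPKM in WT-Sham1, WT-Sham2, Fat1-Sham1 and Fat1-Sham2, a coefficient of variation of 0.739%. The ATP synthase subunit gene Atp5g3 came next at 1453, 1412, 1428 and 1452 FPKM.

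Oxygen carriers took 2.25% ± 0.332 and behaved in 2 ways. Myoglobin, Mb, was the most abundant nuclear transcript outside the sarcomere and steady, at 9440.0, 7829, 8938 and 9089 FPKM in the same order, although 31.9% of its exon bases lie inside exons of other genes, mainly 1 on the opposite strand. The adult haemoglobin genes, which mark red blood cells and their precursors, were higher in both wild-type libraries: Hbb-bs was at 6137, 5360.4, 3459 and 2693 FPKM and Hba-a1 at 3556, 3589, 2137 and 1641. The erythroid gene Alas2, which encodes the first enzyme of haem synthesis in red cells, was at 80.5, 70.6, 52.2 and 35.7 FPKM and had the same order of libraries as Hbb-bs, with WT-Sham1 highest and Fat1-Sham2 lowest. Hba-a2 was instead highest in Fat1-Sham2, at 144, 107, 167 and 239 FPKM, and shares 89.3% of its 50-base words with other genes, mainly Hba-a1. In bulk RNA, fewer cells of a type and less RNA per cell cannot be told apart.

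Cytosolic ribosomal proteins were the fourth largest class by mean share, with 2.74% ± 0.107. Fatty acid use was larger in Fat1-Sham1 (2.72% against 2.64%) and in Fat1-Sham2 (2.78% against 2.67%). Calcium handling and ion transport took 1.55% ± 0.106, of which the calcium pump Atp2a2 alone (4357 ± 415 FPKM) stood among the first 30 genes. Extracellular matrix and secreted factors took 1.09% ± 0.172 and endothelial genes 0.261% ± 0.0204. The matrix share was 1.34% in WT-Sham2 and 0.969% to 1.04% in the other libraries. The order of the first 3 classes, mitochondrially encoded, sarcomere and nuclear respiratory chain, was the same in all 4 sham libraries, and their ranges did not overlap.

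**Figure D2:**
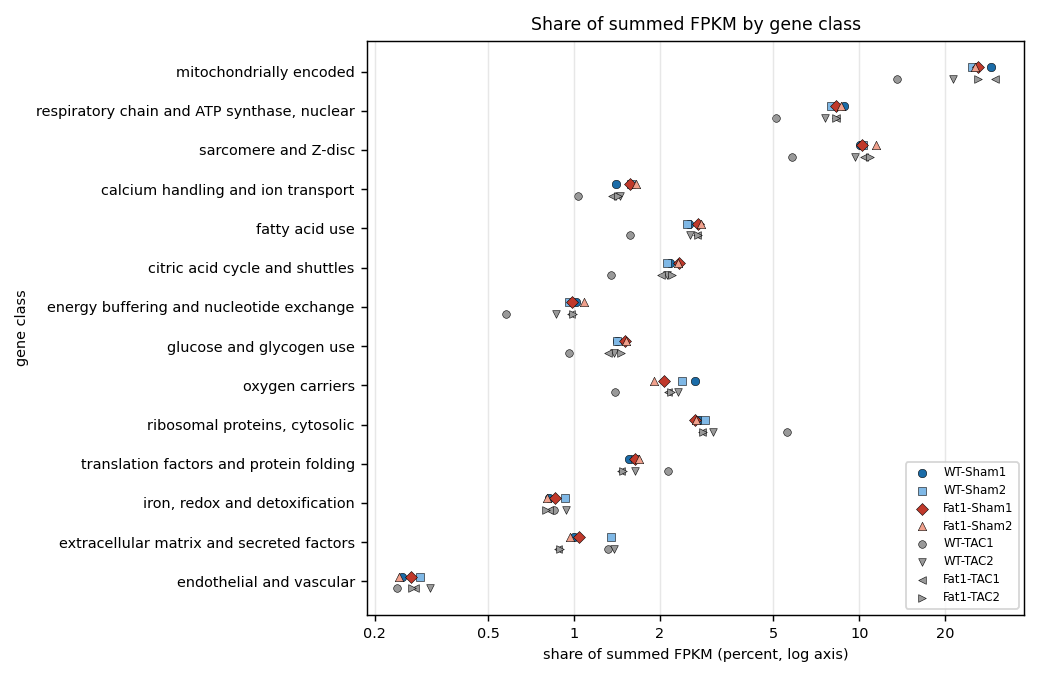
Share of summed FPKM taken by 14 gene classes, in percent on a log axis, with 1 coloured point per sham library and 1 grey point per TAC library. Sham points of a class lie close together, and WT-TAC1 lies below the sham points for most energy and contraction classes.

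To see whether the baseline pattern differed from that of pressure-overloaded hearts, class shares were compared between the 4 sham and the 4 TAC libraries by a two-sided exact permutation test, whose smallest possible p is 0.0286. None of the 14 classes passed (0% called at an adjusted p under 0.05), 0 had an unadjusted p under 0.05, and in 0% of the classes did the sham and TAC libraries not overlap. The smallest p-values were those of calcium handling, 1.55% in sham and 1.32% ± 0.195 in TAC libraries (exact permutation p = 0.0857, adjusted p = 0.333), and that of ribosomal proteins, 2.74% against 3.57% ± 1.35 (the same exact p). Ribosomal proteins took 5.59% in WT-TAC1 and 2.80% to 3.07% in the other TAC libraries. Calcium handling took 1.03% in WT-TAC1 and 1.36% to 1.45% in the other TAC libraries. The mitochondrially encoded share was 13.5% to 29.8% in TAC libraries and so enclosed the sham range.

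Isoform use was described in 68 families with at least 2 listed members and a summed mean of 1 FPKM or more. In 26 of them 1 member held 90% or more of the family's summed FPKM in all 4 sham libraries, and in 13 it held 99% or more. The same member led in all 4 libraries in 64 families. Dominance was most common in the sarcomere group, with 9 of 15 families and a median leading share of 97.7%, and in metabolism, with 8 of 16. The sarcomere group also counted the smooth muscle actins, which are not sarcomeric and were dominated by Acta2 at 97.7% on average. Of 8 mitochondrial families 3 had a dominant member, of 12 calcium and ion families 4, of 7 families of transcriptional regulators 1, and of 4 signalling families 0.

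**Figure D3:**
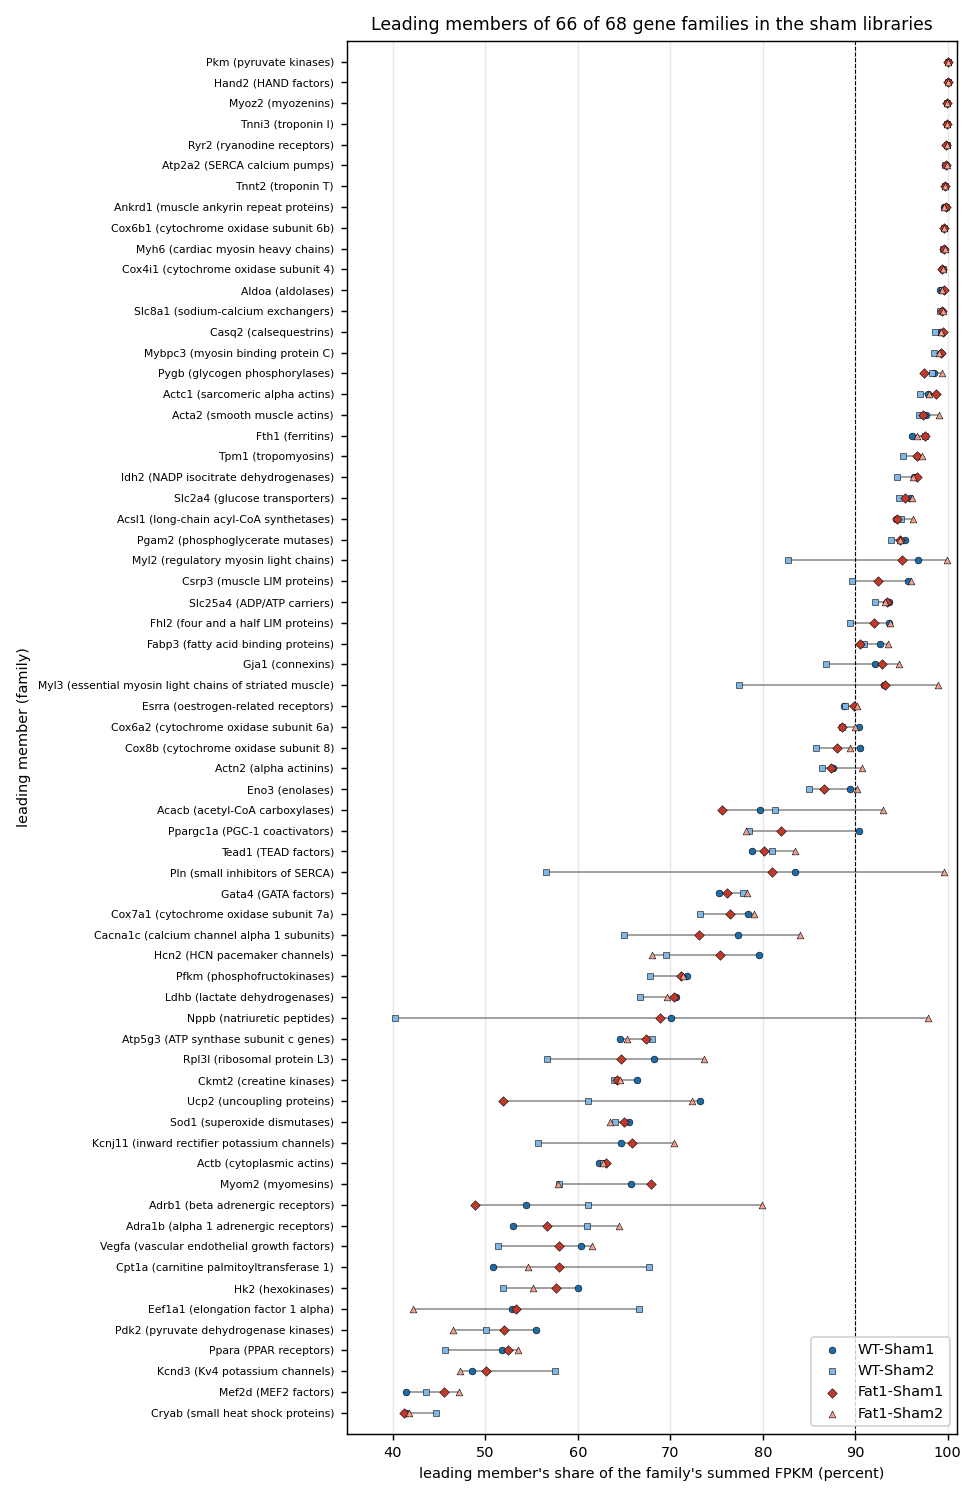
Share of the leading member in the summed FPKM of 66 of the 68 gene families, in percent, with 1 point per sham library, a line from the lowest to the highest library and a dashed line at 90%. Most families form tight clusters, and Pln, Nppb, Myl2 and Myl3 spread from WT-Sham2 at the low end to Fat1-Sham2 at the high end.

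Adult cardiac isoforms dominated contraction. Myh6 held 99.5, 99.5, 99.6 and 99.7% of cardiac myosin heavy chain FPKM in WT-Sham1, WT-Sham2, Fat1-Sham1 and Fat1-Sham2, and the slow beta chain Myh7, the form that prevails before birth in mice, was at 34.4 ± 8.64 FPKM. Of the 50-base words of Myh6, 20.2% occur in another gene, mainly Myh7, so the Myh7 level is uncertain. Actc1 held 97.03% to 98.8% of sarcomeric actin, and the skeletal form Acta1 varied from 109 FPKM in Fat1-Sham1 to 326 in WT-Sham2. Tnni3 held 99.9% to 99.97% of troponin I, Tnnt2 99.7% to 99.8% of troponin T and Mybpc3 98.5% to 99.3% of myosin binding protein C. The slow skeletal form Tnni1, which is the fetal cardiac troponin I, was at 0.306 ± 0.309 FPKM. In calcium cycling Atp2a2 held 99.7% to 99.9% of the SERCA pumps, Ryr2 99.8% to 99.95% of the ryanodine receptors, Casq2 98.7% to 99.5% of the calsequestrins and Slc8a1 99.1% to 99.5% of the sodium-calcium exchangers.

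Several families of contraction were mixed, and their mix differed between libraries. Myl2 held 96.8, 82.7, 95.03 and 99.9% of the regulatory light chains in WT-Sham1, WT-Sham2, Fat1-Sham1 and Fat1-Sham2, with nearly all of the rest from the atrial form Myl7. Myl3 held 93.1, 77.4, 93.2 and 98.99% of the essential light chains of striated muscle, with Myl4 as the main second form. Pln, phospholamban, held 83.5, 56.6, 81.03 and 99.6% of the small SERCA inhibitors, with sarcolipin, Sln, as the rest, and Nppb held 70.1, 40.2, 68.8 and 97.9% of the natriuretic peptides, with Nppa as the rest. All 4 leading shares were lowest in WT-Sham2 and highest in Fat1-Sham2, and their second members Myl7, Myl4, Sln and Nppa are atrial genes. Antisense genes cover 64.7% of the exon bases of Pln and 61.5% of those of Nppa, so reads from these genes could be lost or shared. Myom2 and Myom1, 2 proteins of the M-band, were mixed at 65.8, 57.9, 67.9 and 57.9% for Myom2. By fragments not divided by length Myom2 held 39.8%, and in 7 families another member led by fragments. These were the myomesins, Kv4 channels, pyruvate dehydrogenase kinases, MEF2 factors, small heat shock proteins, superoxide dismutases and elongation factors 1 alpha. Transcripts of the skeletal-type proteins Myoz1 and Ankrd2 were at most 0.340 and 0.465 FPKM.

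Most ion channel families had a leading and a clear second member. The L-type calcium channel Cacna1c held 77.3, 64.98, 73.1 and 84.1% of calcium channel alpha subunits, with the T-type Cacna1h second at 8.86 ± 5.36 FPKM. Gja1, the main connexin of working myocardium, held 86.8% to 94.7% and Gja5, a connexin of atrium and conduction system, was at 7.46, 17.6, 8.93 and 2.67 FPKM. The potassium channels Kcnd3 and Kcnd2, which carry the transient outward current, were nearly equal, at 6.34 ± 0.772 and 5.89 ± 0.611 FPKM, and which of them led differed between libraries.

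In metabolism the muscle and heart isoforms led, with a few unlike the rest. Cox4i1, which is not specific to muscle, held 99.4% to 99.5% of subunit 4 of cytochrome oxidase. Of the muscle-type forms, Cox6a2 held 88.5% to 90.4% of subunit 6a, Cox8b 85.8% to 90.6% of subunit 8 and Cox7a1 73.3% to 79.1% of subunit 7a. Slc2a4, the insulin-responsive glucose transporter, held 94.8% to 96.1% over Slc2a1, Fabp3 90.5% to 93.5%, Acsl1 94.4% to 96.2% and Pgam2 93.9% to 95.4%. Ldhb, the heart-type lactate dehydrogenase subunit, held 66.8% to 70.6% over Ldha, Ckmt2, the mitochondrial creatine kinase of striated muscle, 63.9% to 66.4% over Ckm, and Pfkm 67.8% to 71.8%. Hexokinase was shared between Hk2 (159 ± 15.5 FPKM) and Hk1 (123 ± 17.1), and pyruvate dehydrogenase kinase between Pdk2 (363 ± 36.3) and Pdk4 (251 ± 75.8). Pdk4, which rises in fasting, was at 172, 226, 255.99 and 352 FPKM in WT-Sham1, WT-Sham2, Fat1-Sham1 and Fat1-Sham2.

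Some leading members were not the ones known as muscle forms. Pygb, the brain form of glycogen phosphorylase, held 97.4% to 99.4% of its family at 613 ± 52.97 FPKM, and Pygm, the muscle form, was at 0, 0.0284, 0.102 and 0.0617 FPKM. Neither gene overlaps exons of another gene, and 0.273% of the 50-base words of Pygb and 0.405% of those of Pygm occur in another gene. Cpt1a, the liver form of carnitine palmitoyltransferase 1, led at 11.9 ± 3.20 FPKM over the muscle form Cpt1b at 6.97 ± 0.997. For Cpt1b, however, 81.4% of the exon bases lie inside exons of Gm44502 on the same strand, a gene not analysed here, so this order is uncertain. Tagln, an abundant smooth muscle transcript in most tissues, was at 0.0731, 0.683, 0.349 and 0.423 FPKM, with 67.9% of its exon bases inside other genes, mainly Gm48529 on the opposite strand. Among translation factors the muscle and nerve form Eef1a2 (626 ± 74.96 FPKM) stood beside Eef1a1 (753 ± 233), and the muscle-specific ribosomal protein Rpl3l held 68.2, 56.7, 64.6 and 73.7% over Rpl3.

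Regulators of cardiac gene expression were mostly mixtures. Gata4 held 75.3% to 78.3% over Gata6, Tead1 78.9% to 83.5% over the other TEAD factors, and Esrra 88.8% to 90.2% of the oestrogen-related receptors. Mef2d (76.2 ± 10.7 FPKM), Mef2a (63.1 ± 5.64) and Mef2c (31.8 ± 5.97) were all present, as were Ppara (33.4 ± 4.85), Ppard (20.7 ± 0.521) and Pparg (11.3 ± 1.31). Only Hand2 was detected in its family, in which Hand1 was listed at 0 in all 4 libraries. Beta adrenergic receptors were led by Adrb1 (9.60 ± 1.67 FPKM), and Adrb3, a receptor of adipocytes, was at 4.51, 5.27, 8.54 and 1.19 FPKM, lowest in Fat1-Sham2 as the adipocyte genes below were.

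When leading shares were compared between sham and TAC libraries, 0 of 68 families passed (0% called, exact permutation test with Benjamini-Hochberg adjustment), and 2 had an unadjusted p under 0.05, with 2.94% of families not overlapping between the groups. These 2 were myosin heavy chains and PGC-1 coactivators, both with a higher leading share in sham libraries. The Myh6 share was 98.7% to 99.1% in TAC libraries against 99.5% to 99.7% in sham (difference of means 0.651 points, exact p = 0.0286, adjusted p = 0.571). Ppargc1a, a coactivator of mitochondrial genes, held 90.4, 78.5, 81.96 and 78.2% in the sham libraries and 62.5% to 68.1% in TAC libraries (exact p = 0.0286, adjusted p = 0.571). Each p is the smallest that 4 against 4 libraries can give, which limits what the adjusted test could call.

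The genes that varied most between the 4 sham libraries were then listed. Of 12873 genes with a mean of 1 FPKM or more, 696 (5.41%) were over 2-fold apart on the scale of log2(FPKM + 1). Among them were 487 protein-coding genes, 90 pseudogenes, 81 small RNA genes, 13 long intergenic non-coding and 12 antisense genes, and 146 of the 696 had fewer than 20 fragments on average. For 527 the SD exceeded 3 times the SD that fragment counting alone would give. Small RNA genes are short and few fragments decide their values, and 37 of 52 microRNA genes were over 2-fold apart. WT-Sham2 was the highest library for 427 of the 696 genes (61.4%), against 46.8% of all 12873 genes, and Fat1-Sham2 the lowest for 376 (54.02%), against 30.5% of all. For 289 genes both held. Without WT-Sham2 319 genes were over 2-fold apart, and without Fat1-Sham2 445.

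**Figure D4:**
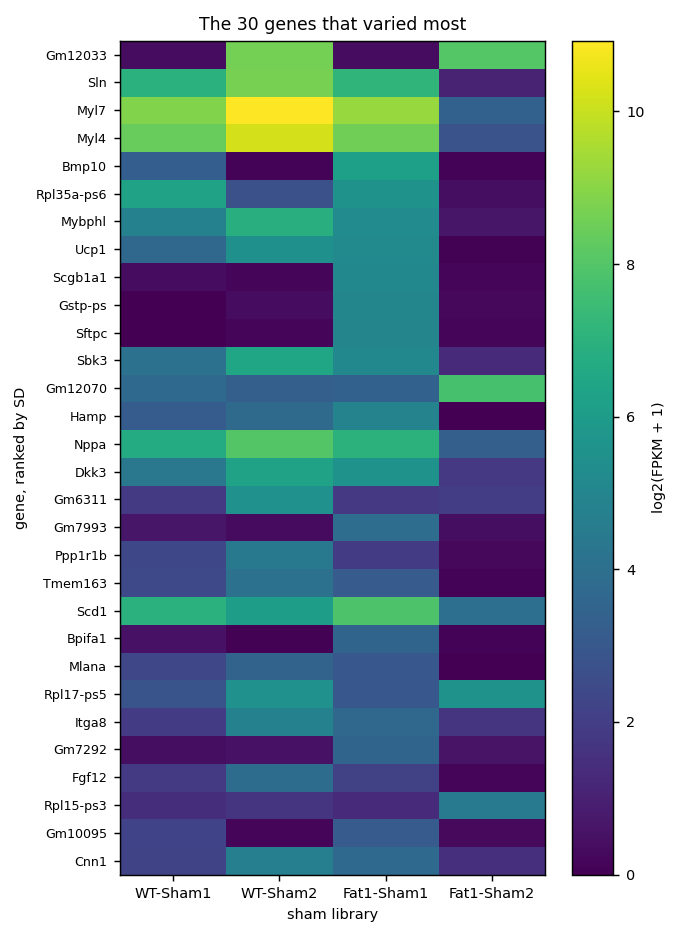
Level of the 30 genes with the largest SD across the sham libraries, as log2(FPKM + 1), with 1 column per library. Atrial genes such as Myl7, Myl4 and Sln are dark in Fat1-Sham2 and brightest in WT-Sham2, and a second set, with Scgb1a1 and Sftpc, is bright only in Fat1-Sham1.

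Of the 30 genes that varied most, 20 were protein-coding, 9 pseudogenes and 1 a long non-coding RNA, and 14 were highest in WT-Sham2 and lowest in Fat1-Sham2. Among these were atrial genes. Sln was at 126 FPKM in WT-Sham1, 408 in WT-Sham2, 141 in Fat1-Sham1 and 1.13 in Fat1-Sham2 (SD 3.35 on the log2 scale). Myl7 was at 456, 1945, 602 and 9.62 FPKM in the same order (SD 3.26), Myl4 at 335, 1189.6, 380.2 and 5.97 (SD 3.24) and Nppa at 106, 259, 128 and 9.04 (SD 2.04). Fat1-Sham2 was far below the other libraries for these mRNAs, while the ventricular genes Myl2 and Myl3 were at 12429.5 and 6079 FPKM in that library. Mybphl, a myosin binding protein of atrial and conduction myocytes, was at 27.1, 118, 37.3 and 0.601 FPKM, and Sbk3, Dkk3, Tmem163, Ppp1r1b and Fgf12 had the same highest and lowest library. Pam, which amidates peptides and is abundant in atrial granules, reached 566, 1573, 696 and 342 FPKM.

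Not every atrial gene followed that order. Bmp10, a ligand made in the right atrium of the adult heart, was at 8.63 FPKM in WT-Sham1, 0.0735 in WT-Sham2, 70.5 in Fat1-Sham1 and 0.0797 in Fat1-Sham2. It was therefore near 0 in WT-Sham2, the library with the most Myl7, Myl4 and Sln, and highest in Fat1-Sham1. Hamp, hepcidin, which the right atrium also makes, was highest in Fat1-Sham1 too, at 8.09, 12.8, 28.4 and 0 FPKM, but was present in WT-Sham2. How much atrial tissue each library held was not measured separately and its part in these differences was not tested.

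**Figure D5:**
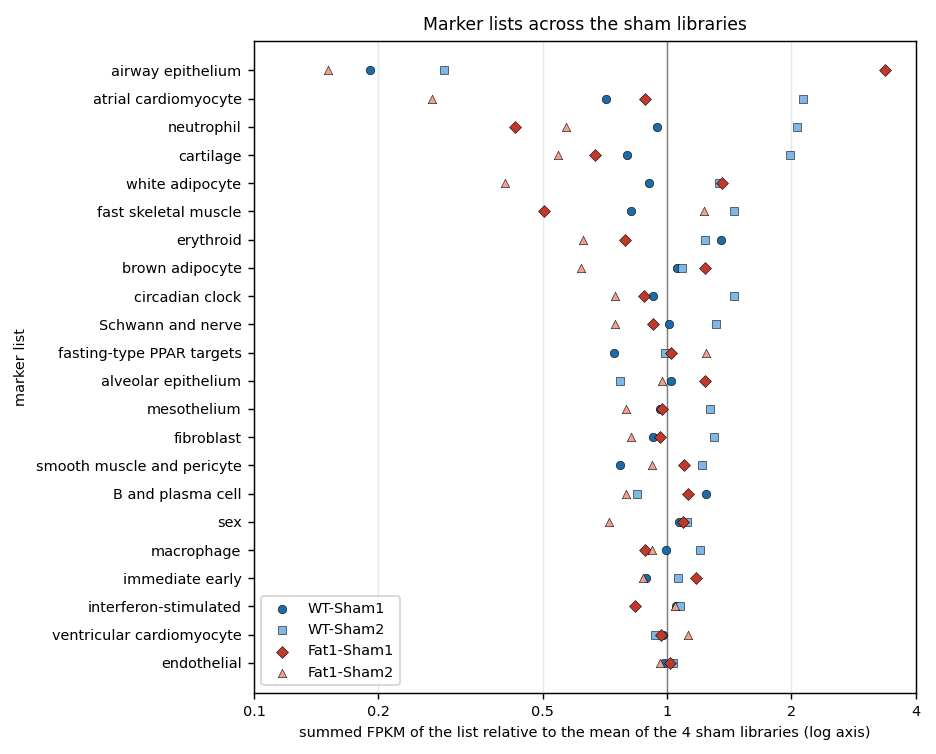
Summed FPKM of 22 marker lists in each sham library, divided by the mean of the 4 libraries, on a log axis, with 1 point per library. The T cell and thymocyte list, near 0 throughout, is not drawn. Airway epithelium markers are raised in Fat1-Sham1 alone, atrial, neutrophil and cartilage lists are highest in WT-Sham2, and endothelial and ventricular lists hardly differ. The cartilage sum is mostly that of Comp.

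Adipocyte genes formed a second group and were lowest in Fat1-Sham2. The 8 white adipocyte markers summed to 216, 319.8, 327 and 97.5 FPKM in WT-Sham1, WT-Sham2, Fat1-Sham1 and Fat1-Sham2, all 8 were lowest in Fat1-Sham2, and 7 of the 7 with a mean of 1 FPKM or more were over 2-fold apart. Of all 12873 genes, 30.5% were lowest in Fat1-Sham2 and 5.41% were over 2-fold apart. Adipoq, the hormone adiponectin, was at 28.1, 35.1, 42.5 and 9.04 FPKM and the lipid droplet protein Plin1 at 17.7, 31.7, 38.99 and 6.45. Ucp1, the uncoupling protein of brown fat, was at 12.04, 44.02, 36.4 and 0.0313 FPKM, and its level in Fat1-Sham2 rested on 1 fragment. Some enzymes of fatty acid synthesis, chosen after their values were seen, were also lowest in Fat1-Sham2. Scd1 was at 125, 68.2, 236 and 14.9 FPKM, Fasn at 89.9, 90.03, 169 and 26.9 and Elovl6 at 5.29, 6.18, 9.35 and 0.724, each highest in Fat1-Sham1. Of the acetyl-CoA carboxylases, which make malonyl-CoA, Acaca had the same highest and lowest library, at 16.8, 17.03, 28.00 and 6.98 FPKM, whereas Acacb was highest in Fat1-Sham2, at 66.1, 74.2, 86.5 and 92.5. Scd1, Fasn and Elovl6 are expressed in fat and to a lower degree in muscle, and the part of fat tissue in their differences was not tested.

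Several lung genes were high in Fat1-Sham1. Scgb1a1, the secretory protein of club cells, was at 0.297 FPKM in WT-Sham1, 0.0990 in WT-Sham2, 33.1 in Fat1-Sham1 and 0.107 in Fat1-Sham2, which corresponded to 2, 1, 280 and 1 fragments. Sftpc, surfactant protein C of alveolar type 2 cells, was at 0, 0.117, 29.9 and 0.127 FPKM in the same order, Bpifa1, a secretory protein of the upper airway, at 0.436, 0.0582, 10.6 and 0.0631, and Sftpa1 at 0, 0, 3.82 and 0. The 9 airway markers summed to 2.87, 4.32, 50.6 and 2.27 FPKM. Scgb3a2 was at 0, 0, 2.82 and 0 FPKM, Ager at 0.0476, 0.159, 2.05 and 0.104 and Sftpd at 0, 0, 0.620 and 0. These levels in Fat1-Sham1 rested on 33, 54 and 17 fragments. Some other members of these lists did not stand out in Fat1-Sham1. Foxj1 was at 0.108, 0.0180, 0.0643 and 0 FPKM, Krt8 at 1.88, 2.11, 1.71 and 1.59 and Scgb3a1 at 0.129, 1.99, 2.06 and 0.468. Sftpb rested on 1 fragment in Fat1-Sham1. Of the general epithelial markers, Epcam and Cdh1 were at 0.0827 and 0.220 FPKM in Fat1-Sham1, on 3 and 11 fragments. In the other sham libraries they were at most at 0.0231 and 0.0364 FPKM. Hopx, a marker of alveolar type 1 cells that cardiomyocytes also express, was at 119, 89.2, 107 and 113 FPKM and made up most of the alveolar sum.

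Of the 8 smooth muscle and pericyte markers 4 were highest in WT-Sham2, which was the highest library for 46.8% of the 12873 genes with a mean of 1 FPKM or more. Cnn1, calponin of differentiated smooth muscle, was at 3.73, 25.02, 12.3 and 1.82 FPKM in WT-Sham1, WT-Sham2, Fat1-Sham1 and Fat1-Sham2, Acta2 at 47.7, 212, 125 and 120.2, Myh11 at 9.08, 29.9, 18.1 and 9.07 and Myl9 at 58.9, 244, 117 and 52.8. The pericyte genes Rgs5, at 205, 171, 231 and 189.7 FPKM, and Kcnj8, at 15.4, 13.8, 18.5 and 15.9, were lowest in WT-Sham2. Pdgfrb, at 11.2, 12.2, 13.8 and 12.1 FPKM, and Notch3, at 7.66, 7.90, 9.20 and 9.07, were highest in Fat1-Sham1. All 10 fibroblast markers were highest in WT-Sham2, and their sum was 1717, 2412, 1781 and 1517 FPKM. Postn, a matrix protein of valves and activated fibroblasts, was at 21.2, 49.5, 18.7 and 12.8 FPKM, and the secreted connective tissue protein gene Comp at 12.8, 35.4, 10.6 and 6.02. Podn, which encodes a matrix proteoglycan, was at 10.95, 43.6, 18.5 and 6.31 FPKM and Cytl1 at 14.2, 41.3, 16.2 and 7.92. Of the 46 matrix genes of the class list 12 were over 2-fold apart (26.1%), against 5.41% of all genes. Gsn, the most abundant of the 10 markers, was less than 2-fold apart, at 997, 1254, 1085 and 888 FPKM.

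Clock genes differed between the sham libraries in opposite directions. Dbp, an output gene of the circadian clock, was at 23.9 FPKM in WT-Sham1, 62.8 in WT-Sham2, 15.4 in Fat1-Sham1 and 8.66 in Fat1-Sham2. Per3 was at 4.36, 13.03, 4.56 and 2.93 FPKM in the same order, Per2 at 5.96, 8.46, 2.84 and 2.31, Ciart at 3.96, 10.5, 2.50 and 2.54 and Tef at 93.9, 159, 90.4 and 73.6, all highest in WT-Sham2. Arntl, which encodes BMAL1 of the activating arm, was at 3.58, 1.96, 6.58 and 7.23 FPKM and its partner Npas2 at 1.14, 0.926, 2.63 and 3.25, both lowest in WT-Sham2 and highest in Fat1-Sham2. Of the 14 clock genes 7 were over 2-fold apart and 10 were highest in WT-Sham2, against 5.41% and 46.8% of all 12873 genes. Their summed level was 281, 441, 267 and 227 FPKM in the sham libraries and 509.9 to 672 FPKM in the TAC libraries. All marker lists were compared in this way, and the sham and TAC ranges of most overlapped. Those of the clock, interferon, sex and T cell lists did not, with TAC libraries higher. The highest sham and lowest TAC sums were close for interferon (112 and 116 FPKM), sex (104 and 107) and T cell lists (1.18 and 1.24). Of the 9 T cell genes, 7 were at 3 fragments or fewer in each sham library. No share over all genes is given for scale, and none of these sums was tested. The hour at which each heart was taken is not given in the sources used here, and its part was not tested.

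The E-box CACGTG, which BMAL1 with CLOCK or NPAS2 binds, occurred in 5 of the 13 clock promoters in the table, 38.5%, against 7.24% of all promoters and 10.3% of those of expressed genes. In the sarcomere class it occurred in 3 of 53. The 3 clock genes with a match that varied most are shown as above, with CACGTG in capitals.
Ciart (chr3:95882179-95882478, minus strand): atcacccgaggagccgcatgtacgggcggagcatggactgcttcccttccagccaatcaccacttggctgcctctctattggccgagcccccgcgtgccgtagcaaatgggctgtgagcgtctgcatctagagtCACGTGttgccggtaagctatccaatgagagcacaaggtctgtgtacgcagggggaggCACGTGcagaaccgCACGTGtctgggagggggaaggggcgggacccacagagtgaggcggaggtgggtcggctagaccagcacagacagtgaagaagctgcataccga
Tef (chr15:81802423-81802722, plus strand): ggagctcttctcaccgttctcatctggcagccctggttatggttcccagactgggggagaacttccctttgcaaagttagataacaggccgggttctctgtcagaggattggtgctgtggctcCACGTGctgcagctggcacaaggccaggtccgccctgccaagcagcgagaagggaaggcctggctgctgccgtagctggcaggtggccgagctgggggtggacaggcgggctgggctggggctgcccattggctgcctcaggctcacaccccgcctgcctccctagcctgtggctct
Cry1 (chr10:85185005-85185304, minus strand): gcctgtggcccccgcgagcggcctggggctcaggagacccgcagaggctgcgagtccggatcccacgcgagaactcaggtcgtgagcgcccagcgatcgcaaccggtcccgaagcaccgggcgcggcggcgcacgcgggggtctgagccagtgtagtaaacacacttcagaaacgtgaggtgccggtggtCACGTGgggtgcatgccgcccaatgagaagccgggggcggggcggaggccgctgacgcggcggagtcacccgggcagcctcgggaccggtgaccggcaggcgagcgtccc
Ciart held 3 matches, 116, 58 and 44 bases before the start, and its level differed between 2.50 FPKM in Fat1-Sham1 and 10.5 in WT-Sham2. Tef and Cry1 held 1 match each. Cry1, a repressor of the clock, was highest in Fat1-Sham2, at 5.97, 8.43, 9.95 and 12.2 FPKM.

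Genes of acute stimulation and of blood cells did not all follow a single order of libraries. Of the 10 immediate early genes 7 were lowest in Fat1-Sham2. Fos, an immediate early gene, was at 3.30, 8.16, 6.18 and 0.843 FPKM in WT-Sham1, WT-Sham2, Fat1-Sham1 and Fat1-Sham2 and Egr1 at 4.90, 9.99, 9.38 and 2.05, both lowest in Fat1-Sham2, whereas Nr4a1 was highest there at 8.85, 12.9, 18.4 and 23.5. The neutrophil gene S100a8 was at 7.89, 17.6, 3.20 and 4.16 FPKM and its partner S100a9 at 7.94, 16.2, 3.05 and 3.27. All 7 neutrophil markers were highest in WT-Sham2, and 4 of the 7 had a mean of 1 FPKM or more. Macrophage markers, all 8 highest in WT-Sham2 but 0 of 8 over 2-fold apart, summed to 353, 426, 312 and 325 FPKM, and endothelial markers, also 0 of 10, to 484, 509, 500.2 and 474. Of all 12873 genes, 46.8% were highest in WT-Sham2, 30.5% were lowest in Fat1-Sham2 and 5.41% were over 2-fold apart. The Y-linked gene Eif2s3y was at 52.5, 54.9, 55.8 and 26.6 FPKM, while the Y-linked Ddx3y was at 33.02, 34.3, 32.02 and 28.7.

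Processed pseudogenes held 9 of the 30 places, and the values of those described here did not follow the genes they copy. Gm12033, the listed gene with the largest SD (4.61 on the log2 scale), was at 0.282 FPKM in WT-Sham1, 394 in WT-Sham2, 0.281 in Fat1-Sham1 and 262 in Fat1-Sham2. It is a copy of Gapdh, the glycolytic enzyme gene often used as a reference, and 84.3% of its 50-base words occur in Gapdh. Gm12070, a second copy that shares 94.8%, was at 12.4, 9.03, 9.54 and 214 FPKM in the same order. Gapdh itself was at 148, 48.2, 143 and 65.1 FPKM, a 3.07-fold range, and was lower in the 2 libraries in which Gm12033 was high. Its mean of 100.99 ± 51.7 FPKM lay below those of Aldoa and Tpi1, enzymes of neighbouring steps of glycolysis. Since reads can be split between Gapdh and these copies, the level of Gapdh and its range are uncertain too.

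Others were copies of genes that stayed steady. Rpl35a-ps6 was at 77.4, 5.52, 46.6 and 0.307 FPKM and Rpl35a at 144, 148, 141 and 141. Gm6311, a copy of Rps2, was at 2.57, 45.2, 2.56 and 2.97 FPKM and Rps2 at 642, 685, 654 and 736, and Rpl15-ps3, all of whose words occur in Rpl15, was at 1.72, 2.15, 1.55 and 20.8 FPKM and Rpl15 at 137, 154, 132 and 141. Of the 550 processed pseudogenes with a mean of 1 FPKM or more, 81 were over 2-fold apart (14.7%), against 4.20% of protein-coding genes. Values of such near-identical copies are uncertain, because the counting decides which copy receives a fragment.

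Most of the baseline was steady beside these groups. Of the 100 most abundant genes 90 stayed within 1.5-fold between the lowest and the highest sham library, and 6 exceeded 2-fold: Hbb-bs, Hba-a1, Tcap, Pam, Eef1a1 and Myl7. The median coefficient of variation over the 100 was 7.64%. Among the 28 genes of the citric acid cycle and its shuttles and the 15 of energy buffering with a mean of 1 FPKM or more, 0 were over 2-fold apart, and of 86 cytosolic ribosomal protein genes 1 was. Of the 696 genes over 2-fold apart among sham libraries, 479 (68.8%) were also over 2-fold apart among the TAC libraries, against 36.2% of all 12873 genes.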

How the data were processed

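RNA of 8 heart samples was made into mRNA libraries (NEBNext Ultra) and sequenced with a paired-end kit on an Illumina HiSeq. The authors mapped quality-filtered reads and deposited 1 FPKM value per gene and library, and the submitters' processing notes name HISAT2 with mm10 and GRCm38; the counting program and annotation are not given in the sources used here. The deposited FPKM values could be written as whole fragments at 1 length per gene, searched for where no annotated length served, so fragments and depth were recovered (14163994 to 21218331 per library) and used for floors and for alternatives. Symbols and gene types are from GENCODE release M21 for 25873 of 25929 identifiers, and 4 blank lines were dropped. Families, classes and marker lists, and their rules, were chosen with earlier results of these data known. The family members Tnnc2, Cox8c and Ldhc were not analysed here, and a few genes that the naming rule below would take are not reported here.

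Families and classes were compared by exact permutation of 4 sham against 4 TAC libraries, and genes between genotypes by limma (version 3.58.1 in R 4.3.3) on log2(FPKM + 1) with all 8 libraries, a trend and Benjamini-Hochberg adjustment. The fit had been planned for counts or FPKM, and the FPKM form applied. A gene entered the class that first held it. Named genes were the 30 most abundant, the 3 leading genes of each class, members of families and marker lists and the 30 with the largest SD; Gapdh, Pam, other parents of pseudogenes, the mitochondrial genes outside the first 100 and further genes among the 150 with the largest SD were chosen after their values were seen, as were the 3 promoter motifs. Exon overlap and shared words of 50 bases were computed from GENCODE M21 and promoter letters from RefSeq (GRCm38.p6). Alternatives covered the pseudocount, filters, scaling, fragments, pairing and leaving out each library. Other software was Python 3.11.15 with numpy 2.4.6 and pandas 2.3.3. The statistics were tested on simulated data.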

Additional observations from a re-analysis of the deposited data

Results flagged for a closer look

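Within the set of 4 sham libraries, a single library stood apart from the other 3 in 16 of the 165 values tested by Dixon's criterion, which flags about 1 set in 20 by chance. The values tested include the genes with the largest SD, which were chosen for their spread. The count of 16 therefore cannot be set against that rate, and the flagged values are a description. Fat1-Sham1 stood apart with airway epithelium markers at 50.6 FPKM in sum against 2.27 to 4.32, with Scgb1a1 at 33.1 FPKM against 0.297 or less, Sftpc at 29.9 against 0.127 or less and Bpifa1 at 10.6 against 0.436 or less. In the same library Bmp10 was at 70.5 FPKM against 8.63 or less, and interferon-stimulated markers summed to 87.1 FPKM against 109 to 112. The pseudogenes Gstp-ps at 31.7 FPKM and Gm7993 at 14.02 and the non-coding Gm7292 at 10.5 were also high in Fat1-Sham1 alone, with at most 0.561 FPKM elsewhere.

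Fat1-Sham2 stood apart with sex markers summing to 67.4 FPKM against 99.5 to 104, a gap that lay mostly in Eif2s3y, and with the pseudogenes Gm12070 at 214 FPKM against 12.4 or less and Rpl15-ps3 at 20.8 against 2.15 or less. WT-Sham2 stood apart with Gm6311 at 45.2 FPKM against 2.97 or less and with 3 leading shares: Pfkm at 67.8% against 71.2% to 71.8% of phosphofructokinases, Idh2 at 94.5% against 96.3% to 96.6% of NADP isocitrate dehydrogenases, and Cryab at 44.7% against 41.2% to 41.8% of small heat shock proteins.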

How the results depend on the processing

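The share of mitochondrially encoded genes was 26.4% of summed FPKM and 24.4% of recovered fragments, and 25.5% to 26.9% when 1 sham library was left out. The count of energy and contraction genes among the 100 most abundant was 77 and lay between 68, by fragments, and 78. The count of families with a dominant member was 26 and lay between 20, at 95%, and 35, at 80%; it was 31 without WT-Sham2 and 24 of 63 without the 5 families whose leading or next member shares most of its exons or sequence with another gene, an alternative added after the data were seen. The count of genes over 2-fold apart was 696 and moved to 1237 with a pseudocount of 0.1 and 305 at a mean of 5 FPKM or more, as both change which low values count, and to 319 to 603 without 1 library, with 319 without WT-Sham2 and 445 without Fat1-Sham2.

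Families, classes and genes called stayed at 0 under each alternative run. For the genotypes, genes with an unadjusted p under 0.05 numbered at most 729 without 1 library, and 728 without WT-TAC1, where the lone library of its group is assumed to vary like the others. Same-numbered WT-Sham and Fat1-Sham libraries had deviations correlated at -0.11, and the numbers were treated as names only. With 2 libraries per group this correlation cannot show whether the numbers pair the samples. With the replicate block 0 genes, families and classes were called, and with crossed numbers, added after the data were seen, 0 genes. Sign flips over 4 pairs cannot give a p under 0.125. Scaling by the median of ratios moved the median genotype difference from -0.01 to 0.02 on the log2 scale. Depth limits low genes: 3 fragments or fewer give only an upper limit, and short genes are least certain.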

Other observations

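Of the other marker lists, that of fast skeletal muscle summed to 188, 334, 115 and 282 FPKM in WT-Sham1, WT-Sham2, Fat1-Sham1 and Fat1-Sham2. Nearly all of this sum came from Acta1. Transcripts of the fast skeletal muscle myosins Myh1, Myh2 and Myh4 were at 0.0241 FPKM or less, and Mylpf at 1.46, 1.19, 2.46 and 1.30 FPKM in WT-Sham1, WT-Sham2, Fat1-Sham1 and Fat1-Sham2. Mesothelial genes, which mark the outer surface of the heart, were present in all 4 libraries and summed to 41.2, 54.5, 41.8 and 33.99 FPKM, with Msln at 11.4, 14.1, 10.6 and 7.98 and Upk3b at 11.7, 18.2, 13.7 and 10.4. Schwann and nerve genes summed to 67.3, 87.5, 61.6 and 49.7 FPKM and were lowest in Fat1-Sham2 for 6 of 7 genes, among them the myelin gene Mbp, at 5.60, 6.27, 5.84 and 2.41 FPKM. Fat1-Sham2 was the lowest library for 30.5% of all 12873 genes. B and plasma cell genes summed to 20.2, 13.7, 18.3 and 12.9 FPKM, mostly Igkc and Ighm.

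Genes known to rise in fasting did not share an order of libraries. Acot2 was at 29.6, 35.1, 37.2 and 45.3 FPKM and Acot1 at 8.19, 11.7, 9.66 and 17.4, both highest in Fat1-Sham2 as Pdk4 was, whereas Ucp3 was highest in WT-Sham2 at 10.1, 37.8, 20.1 and 16.3 and Angptl4 in Fat1-Sham1 at 8.76, 9.60, 16.9 and 5.70. Plin2, a coat protein of lipid droplets, hardly varied, at 73.6, 78.6, 73.6 and 74.6 FPKM. Of the 8 cartilage markers 5 were highest in WT-Sham2, which was the highest library for 46.8% of all 12873 genes. Among the 5 was Comp, at 35.4 of the list's 40.3 FPKM in that library, while Col2a1 and Col9a1 rested on 5 and 4 fragments there. Cnmd was highest in Fat1-Sham2, at 2.39, 2.31, 1.97 and 3.94 FPKM.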
